A study of Homo sapiens with 12 samples.

Results

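The exonic part of an iCLIP data set on 3 RNA-binding proteins is described here: listed crosslink positions that carry a transcript name without an intron number, outside the mitochondrial genome and outside the contig that holds the ribosomal RNA repeat. Of 1162690 listed positions, 104855 met this rule and 1050240 were intronic. iCLIP crosslinks protein to RNA in living cells with ultraviolet light, recovers one protein with an antibody and sequences the attached RNA. The cells were H9, an established human embryonic stem cell line. Libraries were made for FOX2 (antibody to RBFOX2), TDP43 and hnRNP M, each from P-KO cells, whose source label reads SPA PKO, and from WT cells, all crosslinked at 400 mJ/cm2. Each of the 6 groups had 2 libraries, which the series design calls biological replicates. The labels do not say whether P-KO is 1 clone, and no RNA abundance was measured here, so that more contacts per RNA molecule and more RNA cannot be told apart.

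The 3 proteins are known as nuclear regulators of pre-mRNA splicing. FOX2 recognises GCAUG-type elements, mostly in introns flanking alternative exons, and also contacts the ends of some mature mRNAs. TDP43 binds UG-rich stretches, represses the use of cryptic exons and binds its own mRNA. hnRNP M is an abundant nuclear protein that binds GU-rich RNA. Their best-known targets are intronic, while exonic contacts can come from spliced mRNA and from noncoding RNA without introns.

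The files name Ensembl transcripts but do not pair them with genes, and none of the reference tables used here holds these identifiers. Transcripts are therefore given by identifier and hg19 position, without gene names or roles, and marker genes of stem cells could not be looked up. Listed counts spread over neighbouring bases, so positions were thinned to those of highest count lying 11 nt or more apart. The kept positions are called windows. Library depth is the sum of all window counts, and CPM values are counts per 1000000 of it. Positions below the authors' limits are absent from the lists, and a transcript without a window is described as listed at 0. CPM and shares are not corrected for transcript length, so levels of different transcripts are given with the number of windows and are not compared as binding per base.

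Exonic windows numbered 51855 over the 12 libraries and lay on 17404 transcripts. Their counts came to 29134 and 81326 in FOX2 P-KO, 19916 and 27245 in FOX2 WT, 16026 and 30540 in TDP43 P-KO, and 26459 and 33928 in TDP43 WT. The hnRNP M libraries held far fewer, with 2587 and 3278 in P-KO and 2773 and 8426 in WT. Low depth limits hnRNP M most: 13 transcripts had an exonic window in all 4 hnRNP M libraries, against 258 in all 4 TDP43 and 429 in all 4 FOX2 libraries. Of the 17404 transcripts, 10899 were listed in 1 library only and 7 in all 12. Libraries stood apart in 2 technical measures. Exonic positions per window were 2.50 and 3.30 in FOX2 P-KO, against 1.52 and 1.71 in FOX2 WT, and 1.07 to 1.87 in the other 8 libraries. In 5 of the 12 libraries, all of them replicate 2, listed positions 3 nt apart were over 1.2 times as frequent as those 2 or 4 nt apart. The ratio was 11.6 in hnRNP M P-KO and 10.8 in hnRNP M WT replicate 2. It was 1.73 in FOX2 WT, 1.63 in TDP43 P-KO and 1.39 in TDP43 WT replicate 2.

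Exonic windows took a minority of counts in every library, and a smaller one for hnRNP M than for FOX2 or TDP43. The exonic share of exonic plus intronic counts was 12.8% and 12.9% in FOX2 P-KO, against 9.23% and 9.74% in FOX2 WT. It was 9.38% and 11.2% in TDP43 P-KO, against 13.1% and 13.1% in TDP43 WT. For hnRNP M it was 4.19% and 5.83% in P-KO, against 4.53% and 7.18% in WT. The widest 95% Clopper-Pearson interval, that of hnRNP M P-KO replicate 2, ran from 5.64% to 6.03%, and such intervals cover counting error only. All 4 FOX2 and all 4 TDP43 libraries lay above all 4 hnRNP M libraries. The difference in log2 share was 1.06 for FOX2 against hnRNP M and 1.13 for TDP43 against hnRNP M, each with p = 0.0556 and 0.0833 after adjustment over 3 pairs (exact permutation tests within genotype, two-sided). That p of 0.0556 is the smallest the design allows, so neither pair could pass 0.05. FOX2 and TDP43 libraries overlapped, with a log2 difference of -0.07 (exact permutation p = 0.778). The separation from hnRNP M is one of counts. As a share of windows the log2 difference was 0.51 for FOX2 (exact permutation p = 0.0556) and 0.21 for TDP43 (p = 0.111), and hnRNP M WT replicate 2, at 6.75% of windows, lay within the TDP43 range of 6.08% to 6.81%.

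**Figure D1:**
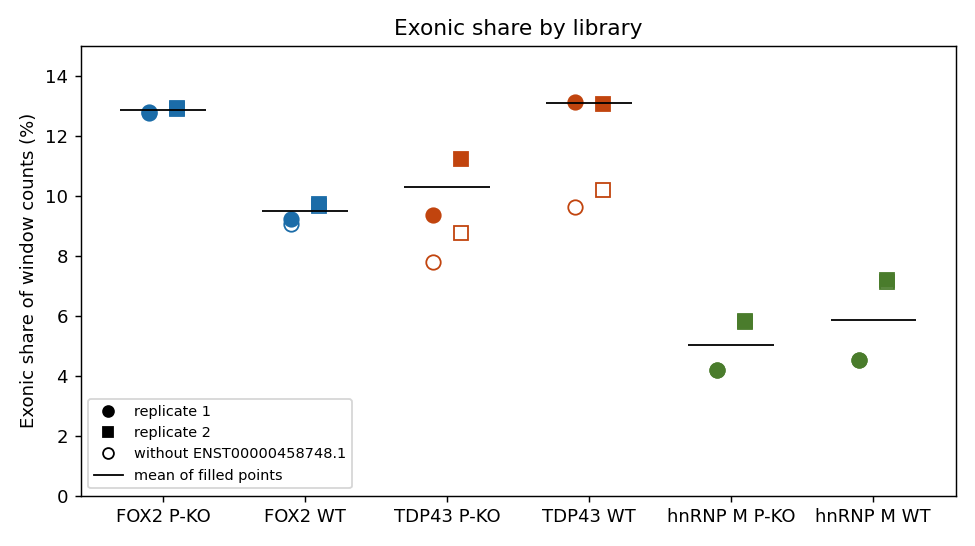
Exonic share of exonic plus intronic window counts (percent, vertical axis) in each library, with circles for replicate 1, squares for replicate 2 and a line at the group mean. Open symbols leave out ENST00000458748.1, without which the TDP43 libraries lie between 7.78% and 10.2%.

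The genotype difference in exonic share ran in opposite directions for FOX2 and TDP43. The mean share was 12.9% ± 0.106 in FOX2 P-KO and 9.48% ± 0.363 in FOX2 WT (SD, n = 2 each), a log2 difference of 0.44. It was 10.3% ± 1.32 in TDP43 P-KO and 13.1% ± 0.0439 in TDP43 WT, a log2 difference of -0.35. The groups did not overlap for either protein, while hnRNP M P-KO and WT overlapped. The FOX2 difference minus the TDP43 difference was 0.79 (exact permutation p = 0.0556, the smallest possible). Genotype was permuted within each protein, which assumes no genotype difference in either and does not test whether the differences are equal. Over the 3 proteins together the P-KO minus WT difference was -0.04 (exact permutation p = 0.806). The larger number of positions per window in FOX2 P-KO moved with the FOX2 difference, and its part in it was not tested. When windows instead of counts were taken, the TDP43 shares of 6.58% and 6.08% in P-KO overlapped those of 6.31% and 6.81% in WT.

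Exonic windows carried more counts than intronic windows of the same library in FOX2 and TDP43. The mean count was 5.57 and 7.70 per exonic window in FOX2 P-KO, against 3.60 and 5.34 per intronic window, and 3.65 and 3.84 in FOX2 WT, against 2.65 and 2.76. TDP43 gave 4.26 and 5.18 in P-KO exons against 2.90 and 2.65 in introns, and 6.45 and 5.50 in WT exons against 2.87 and 2.67. The exonic to intronic ratio was 1.38 to 1.55 in FOX2 and 1.47 to 2.25 in TDP43, and without ENST00000458748.1, the transcript with most TDP43 counts, it was 1.35 to 1.55 in FOX2 and 1.2 to 1.58 in TDP43. Over the 12 libraries the log2 ratio averaged 0.46 and was positive in 10 (exact sign-flip permutation test, two-sided, p = 0.00635). The other 2 libraries were replicate 1 of hnRNP M, with 7.09 per exonic against 7.89 per intronic window in P-KO and 6.88 against 8.52 in WT. In replicate 2 of hnRNP M the ratio was positive by little, at 1.05 in P-KO and 1.07 in WT. These means cover listed windows only, and whether the listing limit differs between exons and introns was not tested.

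Exonic windows also recurred between replicates more often than intronic ones. Of the windows of the smaller library, 33.5% of exonic and 23.2% of intronic windows overlapped a window of the other replicate in FOX2 P-KO, and 10.6% against 6.37% did so in FOX2 WT. The percentages were 6.97 against 5.57 in TDP43 P-KO, 12.9 against 7.92 in TDP43 WT, 0.822 against 0.414 in hnRNP M P-KO and 1.99 against 1.22 in hnRNP M WT. The exonic value was higher in 6 of 6 groups, by 3.68 percentage points on average (exact sign-flip permutation p = 0.03125, the smallest possible). With window centres at most 1 nt apart the mean difference was 1.33 points, with the same p. For hnRNP M this rests on 3 of 365 windows in P-KO and 8 of 403 in WT. Exonic windows of FOX2 and TDP43 also carried more counts than intronic ones. Overlap was not compared at equal counts or equal density of windows, and the part of either was not tested.

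Exonic windows were placed by the introns that the lists name for the same transcript, since no hg19 exon annotation was used here. An intron is named only where some library listed a position in it. A transcript with no listed intron may therefore still have introns, and these classes do not give gene structure. Windows 3′ of every listed intron, which include terminal exons, held 49.6% to 54.4% of exonic counts in FOX2 libraries and 48.2% to 52.1% in hnRNP M libraries, but 28.6% to 41.3% in TDP43 libraries. Transcripts with no listed intron held 42.7% to 56.8% in TDP43, against 27.7% to 29.8% in FOX2 and 26.0% to 30.3% in hnRNP M. The FOX2 and TDP43 ranges did not overlap for either class. Much of the TDP43 excess lay on 1 transcript: without ENST00000458748.1 the TDP43 share on transcripts with no listed intron was 29.7% to 40.8%, and the share 3′ of listed introns was 37.7% to 50.6%. Counted as windows, transcripts with no listed intron held 22.2% to 27.8% in TDP43, 25.4% to 30.1% in FOX2 and 22.6% to 31.0% in hnRNP M, and these ranges overlapped.

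**Figure D2:**
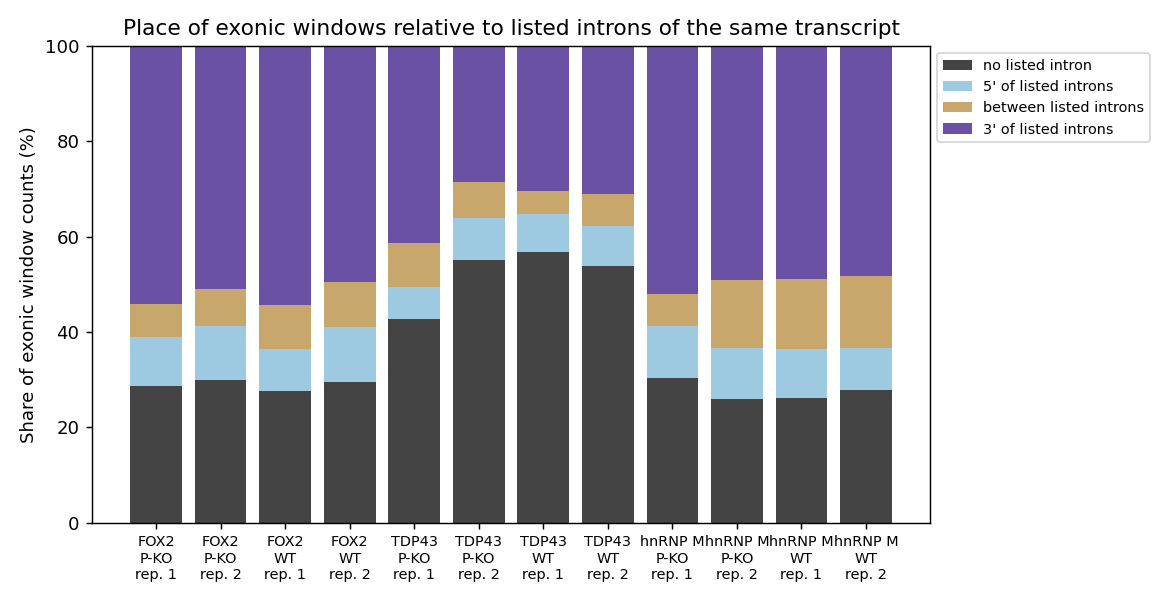
Share of exonic window counts (percent, stacked bars) by place relative to the introns listed for the same transcript, in each of the 12 libraries. The black part, transcripts with no listed intron, spans 42.7% to 56.8% in the TDP43 libraries and 26.0% to 30.3% in the FOX2 and hnRNP M libraries.

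TDP43 counts were concentrated on a single short stretch. ENST00000458748.1 (chromosome 1, plus strand, windows from 109642843 to 109643099, no listed intron) held 18.4% and 24.3% of exonic counts in TDP43 P-KO and 29.7% and 24.5% in TDP43 WT. It had 2954 and 7417 counts in TDP43 P-KO and 7849 and 8309 in TDP43 WT. FOX2 libraries gave 83 and 229 counts in P-KO and 397 and 233 in WT, and hnRNP M libraries 8 and 22 in P-KO and 0 and 92 in WT. Every TDP43 library lay above every other library. By mean share of exonic counts the transcript also ranked 9th in FOX2 (0.85%) and 8th in hnRNP M (0.52%). Mean CPM was 832 ± 689 in FOX2 and 27372 ± 8575 in TDP43 (SD, n = 4 each), a log2 fold change of -5.13 (edgeR quasi-likelihood test, adjusted p = 2.28e-05). Within TDP43 the P-KO to WT log2 fold change was -0.78 and did not pass.

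The profile along this transcript differed between replicate numbers rather than genotypes. In replicate 1 the highest listed count was at 109642919, with 1000 in TDP43 P-KO and 2496 in TDP43 WT. In replicate 2 it was at 109642897, with 1486 in P-KO and 1721 in WT. Sites at 109642870, 109642881, 109643048 and 109643097 were listed in both replicate 2 libraries and at 0 in both replicate 1 libraries. The site at 109642987 was listed in replicate 1 only, with 176 in P-KO and 416 in WT. The differing 3 nt spacing named above separates the same libraries, and its part in these profiles was not tested.

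**Figure D3:**
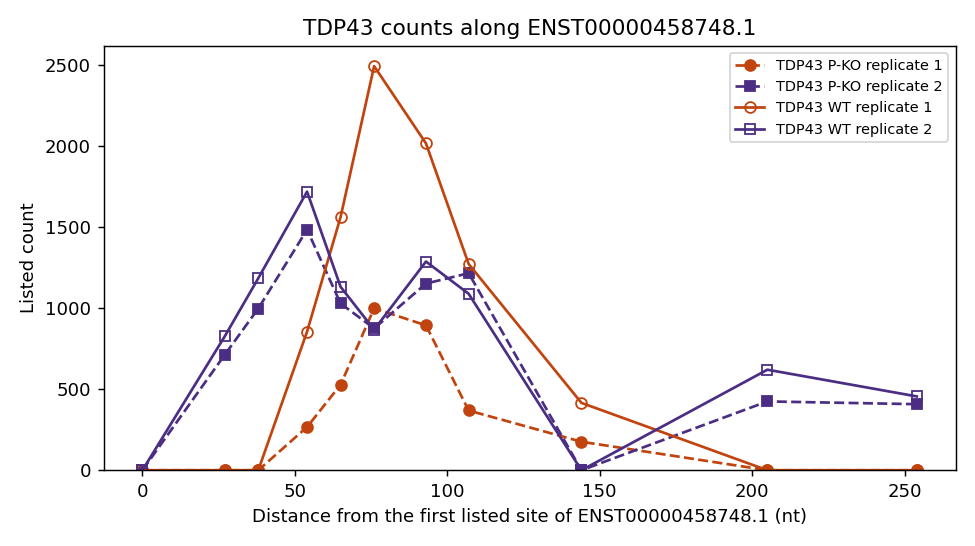
Listed counts (vertical axis) in the 4 TDP43 libraries at the kept sites of ENST00000458748.1, by distance in nt from the first site. Replicate 1 libraries (circles) peak 76 nt and replicate 2 libraries (squares) 54 nt from the first site in both P-KO (filled) and WT (open).

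The transcripts that ranked first in FOX2 and in hnRNP M lay close together on the plus strand of chromosome 11 and had no listed intron. ENST00000534336.1 (65266819 to 65273509) had 1829 and 3530 counts in FOX2 P-KO, against 788 and 623 in FOX2 WT. TDP43 gave 985 and 1405 in P-KO, against 2352 and 1553 in WT, and hnRNP M 100 and 49 in P-KO, against 67 and 182 in WT. It was the highest exonic transcript in all 4 FOX2 libraries, and averaged 4.22% ± 1.64 of FOX2, 6.05% ± 2.03 of TDP43 and 2.48% ± 0.999 of hnRNP M exonic counts (SD, n = 4 each). Its counts were spread over 48 to 104 windows in FOX2, 36 to 47 in TDP43 and 9 to 38 in hnRNP M. FOX2 against TDP43 did not pass (log2 fold change -0.43, edgeR adjusted p = 0.664). It was higher in FOX2 than in hnRNP M (2.92, adjusted p = 1.19e-05) and higher in TDP43 than in hnRNP M (3.35, adjusted p = 8.31e-06). Tested on the number of windows, neither passed (adjusted p = 0.89 and 0.273), and TDP43 against hnRNP M turned to -0.64. Another listed transcript, ENST00000544868.1, lies within the same span, and how the authors divided positions between overlapping transcripts is not given.

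ENST00000501122.2 (65190299 to 65212904) was the highest exonic transcript in all 4 hnRNP M libraries, with 174 and 101 counts in P-KO and 103 and 197 in WT. TDP43 gave 383 and 1245 in P-KO and 767 and 878 in WT, and FOX2 472 and 1871 in P-KO and 187 and 302 in WT. Its share of exonic counts was 1.49% ± 0.612 in FOX2, 2.99% ± 0.755 in TDP43 and 3.96% ± 1.92 in hnRNP M (SD, n = 4 each). In CPM, which are relative to the whole library, it averaged 1697 ± 932 in FOX2, 3314 ± 868 in TDP43 and 1952 ± 572 in hnRNP M. TDP43 against hnRNP M passed (log2 fold change 1.80, edgeR adjusted p = 0.00968, and 0.117 without TMM scaling). Neither FOX2 against TDP43 (-0.94, adjusted p = 0.187) nor FOX2 against hnRNP M (0.86, adjusted p = 0.166) passed.

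The transcript ranked second for FOX2 was nearly unlisted for the other proteins. ENST00000231061.4 (chromosome 5, minus strand, 151041534 to 151043056, 3′ of listed introns) had 880 and 1846 counts in FOX2 P-KO and 237 and 349 in FOX2 WT. The 4 TDP43 libraries gave 0, 0, 0 and 12 counts, and the 4 hnRNP M libraries 0, 0, 0 and 3. FOX2 counts lay in 23 to 45 windows per library. The log2 fold change was 9.21 against TDP43 (edgeR adjusted p = 9.63e-07), and FOX2 against hnRNP M also passed (adjusted p = 3.94e-07). Next came ENST00000282561.3 (chromosome 6, plus strand, 121768456 to 121770743, also 3′ of listed introns). It had 908 and 1329 counts in FOX2 P-KO and 344 and 198 in FOX2 WT. TDP43 gave 21 and 4 in P-KO and 0 and 4 in WT, and hnRNP M listed it in WT replicate 2 alone, with 6. Its log2 fold change was 6.49 against TDP43 (edgeR adjusted p = 4.74e-06).

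Of the 10 transcripts with the highest FOX2 share, ENST00000346798.3, ENST00000375630.2 and ENST00000262370.7 shared this pattern. Their windows lay 3′ of listed introns on chromosomes 21, 13 and 16, except for 3 windows of ENST00000346798.3 with 10 counts in all. ENST00000346798.3 had 575 and 772 counts in FOX2 P-KO, 213 and 111 in FOX2 WT and 7 and 10 in TDP43 P-KO, with 0 listed elsewhere. ENST00000375630.2 had 302 and 1391 in the P-KO and 103 and 214 in the WT libraries of FOX2, against a single value of 3 in the other 8 libraries. ENST00000262370.7 had 215 and 956 in the P-KO and 82 and 226 in the WT libraries of FOX2, against 6 in TDP43 WT replicate 2 and 4 in hnRNP M WT replicate 2. All 3 were higher in FOX2 than in TDP43 (edgeR adjusted p from 9.63e-07 to 4.74e-06). In all 3 the FOX2 libraries lay above every other library.

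Another pair of transcripts was high in both FOX2 and TDP43. ENST00000461111.1 (chromosome 1, plus strand, 987370 to 989025, 5′ of listed introns) had 535 and 1820 counts in FOX2 P-KO and 108 and 468 in FOX2 WT, and 20 and 290 in TDP43 P-KO and 235 and 301 in TDP43 WT. It was listed at 0 in all 4 hnRNP M libraries. The FOX2 and TDP43 libraries overlapped in CPM (log2 fold change 1.22, edgeR adjusted p = 0.242). ENST00000525239.1 (chromosome 11, minus strand, 62609156 to 62609281, 5′ of listed introns) had 574 and 913 in FOX2 P-KO, 348 and 316 in FOX2 WT, 215 and 441 in TDP43 P-KO and 634 and 582 in TDP43 WT. hnRNP M gave 3 and 28 in P-KO and 7 and 52 in WT. By mean share this transcript also ranked 10th in hnRNP M, at 0.46% of exonic counts. It was higher than in hnRNP M in both FOX2 (log2 fold change 3.55, edgeR adjusted p = 0.000169) and TDP43 (3.61, adjusted p = 0.000695). FOX2 against TDP43 did not pass (-0.07, adjusted p = 1).

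**Figure D4:**
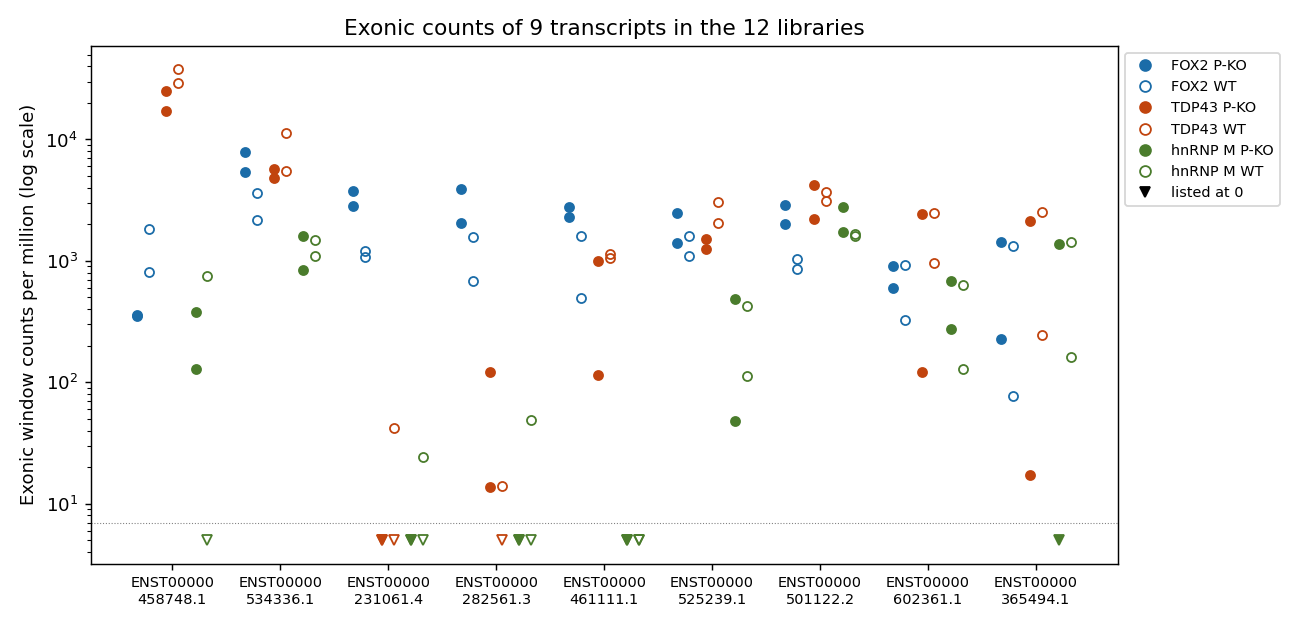
Exonic CPM (log scale) in the 12 libraries for 9 transcripts, those among the 6 highest of FOX2 or TDP43 or the 3 highest of hnRNP M by mean share. Filled symbols are P-KO, open symbols WT, and triangles below the dotted line mark libraries where the transcript is listed at 0, as in all 4 hnRNP M libraries for ENST00000461111.1.

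Among the transcripts leading in TDP43, ENST00000542575.2 and ENST00000462349.1 were low in the other proteins. ENST00000542575.2 (chromosome 19, minus strand, 47278253 to 47291519, mostly 3′ of listed introns) had 78 and 187 counts in TDP43 P-KO and 263 and 201 in TDP43 WT. FOX2 gave 4 and 22 in P-KO and 8 and 13 in WT, and hnRNP M listed it at 0. FOX2 against TDP43 had a log2 fold change of -4.25 (edgeR adjusted p = 8.49e-05), and each TDP43 library held 10 or 11 windows. Tested on the number of windows it did not pass (adjusted p = 0.0647). ENST00000462349.1 (chromosome 21, minus strand, 44479480 to 44479825, no listed intron) had 57 and 235 in TDP43 P-KO and 221 and 234 in TDP43 WT, while FOX2 gave 10 and 109 in P-KO and 15 and 22 in WT. Its log2 fold change for FOX2 against TDP43 was -2.85 (adjusted p = 0.00883).

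The hnRNP M ranking was unstable between replicates. ENST00000269973.5, seventh by mean share, had 55 counts in P-KO replicate 1 and 0 listed elsewhere, and it was too low to be tested. The transcript highest in hnRNP M relative to the other proteins among those listed in all 4 hnRNP M libraries with no overlap was ENST00000357736.4 (chromosome 17, minus strand, 79877274 to 79880271, no listed intron). For hnRNP M it had 8 and 5 counts in P-KO and 11 and 7 in WT. FOX2 listed it in P-KO replicate 2 alone, with 13, and TDP43 in WT alone, with 6 and 9. Mean CPM was 4.97 ± 9.95 in FOX2, 15.2 ± 17.5 in TDP43 and 113 ± 53.1 in hnRNP M (SD, n = 4 each). Neither comparison passed (edgeR adjusted p = 0.113 against FOX2 and 0.19 against TDP43).

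Between proteins, the fit over all 7245 tested features (680 of them exonic transcripts, which held 62.6% of exonic counts) called 158 exonic transcripts for FOX2 against TDP43. That is 23.2% of those tested, against 6.39% of all features. FOX2 was higher in 116, or 17.1% of exonic transcripts against 4.94% of all features. It was lower in 42, or 6.18% against 1.45%. The median log2 fold change was 1.19 over the 680 exonic transcripts and -0.11 over all tested features. The 4 FOX2 libraries all lay above the 4 TDP43 libraries in 173 exonic transcripts (25.4%, against 8.78% of all features), and all below in 87 (12.8%, against 8.14%). A transcript passes the filter on low counts through the protein in which it is high, so these counts describe the 680 transcripts that passed and not all 17404.

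The 116 transcripts higher in FOX2 held 32.8% of FOX2 exonic counts, and 50 of them were listed at 0 in all 4 TDP43 libraries. In the other 66 the median log2 fold change was 5.90, with a range of 2.02 to 9.28. The largest rises were ENST00000250405.5 (chromosome 14, plus strand, 23778216 to 23780206) and ENST00000389054.3 (chromosome 5, minus strand, 140953154 to 140967812). The first had 182 and 733 counts in FOX2 P-KO and 61 and 100 in FOX2 WT (edgeR adjusted p = 3.35e-06). The second had 182 and 348 in the P-KO and 71 and 80 in the WT libraries of FOX2 (edgeR adjusted p = 4.74e-06). Both were listed at 0 in the 4 TDP43 libraries, so no fold is given. In hnRNP M each was listed in 1 library, with 3 and 2 counts.

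The 42 transcripts higher in TDP43 held 32.4% of TDP43 exonic counts, of which ENST00000458748.1 alone held 24.8% and the other 41 held 7.56%. Of the 42, 15 were listed at 0 in all 4 FOX2 libraries. The other 27 had a median log2 fold change of -5.48, with a range of -7.70 to -2.15. The largest falls were ENST00000495794.1 (chromosome 5, minus strand, 881539 to 883995) and ENST00000538010.1 (chromosome 12, plus strand, 122459836 to 122459973). The first had 15 and 52 counts in TDP43 P-KO and 75 and 39 in TDP43 WT (edgeR adjusted p = 0.000906, and 0.185 with DESeq2). The second had 3 and 57 in TDP43 P-KO and 27 and 50 in TDP43 WT (edgeR adjusted p = 0.00565). Both were listed at 0 in all FOX2 and hnRNP M libraries.

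**Figure D5:**
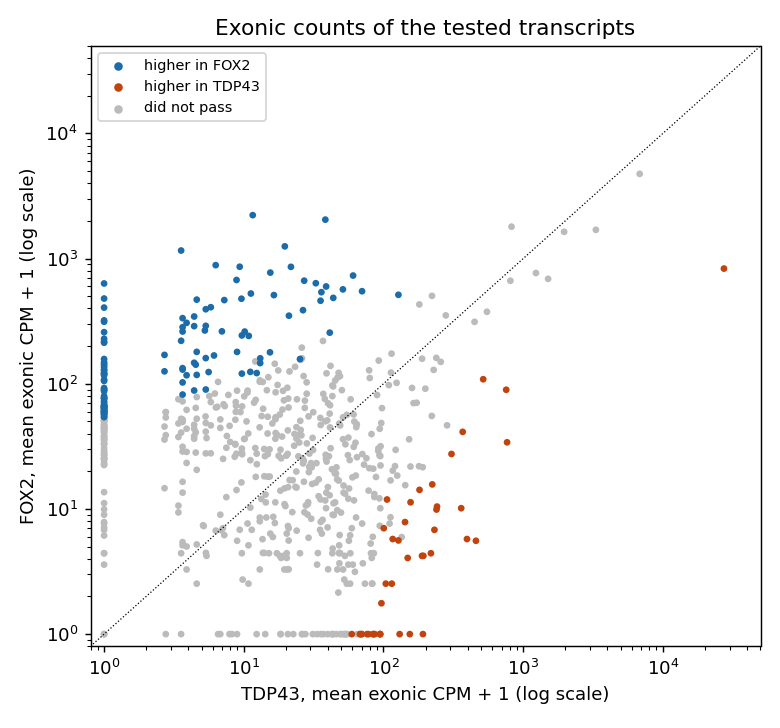
Mean exonic CPM plus 1 of the 680 tested transcripts in TDP43 (horizontal) and FOX2 (vertical), both on log scales, over 4 libraries each. Blue points are the 116 higher in FOX2, orange points the 42 higher in TDP43, and the isolated orange point at the right is ENST00000458748.1.

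Introns of the same transcripts did not follow the exonic difference closely. Of the 116 transcripts with higher exonic counts in FOX2, 94 had intronic counts in either protein, and intronic mean CPM was higher in FOX2 in 47 of these (50.0%). Over all tested exonic transcripts the figure was 248 of 535 (46.4%). Of the 42 with higher exonic counts in TDP43, 32 had intronic counts, which were higher in FOX2 in 13 (40.6%). Windows 3′ of listed introns were the main exonic place in 59.5% of the 116, 59.5% of the 42 and 62.9% of all 680. These shares are descriptions, and no difference between them was tested.

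Against hnRNP M, the calls all ran in one direction. FOX2 was higher in 171 exonic transcripts (25.1%, against 11.6% of all features in either direction and 11.4% higher) and lower in none (0.179% of all features). TDP43 was higher in 56 (8.24%, against 4.50% in either direction and 4.46% higher) and lower in none (0.0414%). At an unadjusted p under 0.05 there were 308 exonic transcripts in either direction for FOX2 (45.3%, against 26.4% of all features) and 211 for TDP43 (31.0%, against 23.4%). DESeq2 called 2 lower in each. All 4 FOX2 libraries lay above all 4 hnRNP M libraries in CPM in 171 exonic transcripts as well, which need not be those called (25.1%, against 9.58% of all features) and below in 2 (0.294%, against 5.07%). For TDP43 the numbers were 90 (13.2%, against 7.47%) and 3 (0.441%, against 3.91%). Of the 171 and the 56, 108 and 31 were listed at 0 in all 4 hnRNP M libraries, whose exonic counts were the lowest. The direction depends on scaling: over transcripts listed on both sides, the median log2 fold change of FOX2 against hnRNP M was 1.85 in the exonic set and 0.64 in all features with TMM scaling, but -0.16 and -0.72 as plain CPM ratios. TDP43 against hnRNP M gave 1.03 and 0.74 with TMM scaling, and -0.41 and -0.48 as plain ratios. Filtered on the libraries of 1 protein alone, 406 exonic transcripts pass for FOX2, while TDP43 passes 254 and hnRNP M 21, so these medians lean away from hnRNP M through the choice of transcripts and are given as descriptions.

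The largest rises of FOX2 over hnRNP M were ENST00000461111.1 and ENST00000346798.3, described above (edgeR adjusted p = 3.94e-07 and 2.99e-07). Those of TDP43 over hnRNP M were ENST00000461111.1 again and ENST00000542575.2 (both with edgeR adjusted p = 2.48e-06). All 3 transcripts were listed at 0 in every hnRNP M library. The comparisons share libraries: 105 transcripts were higher in FOX2 than in both other proteins, which is 90.5% of the 116 and 61.4% of the 171. For TDP43 the number higher than in both others was 27, or 64.3% of the 42 and 48.2% of the 56.

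At single sites most positions were listed in 1 library only, and FOX2 and TDP43 shared few. Windows of all libraries were merged into 43638 sites, of which 38696 were listed in 1 library only. FOX2 had 355 sites listed in all 4 of its libraries, and 274 of these, on 114 transcripts, were listed in none of the other 8 libraries. TDP43 had 124 and 43, so most of its 124 were also listed in a library of another protein. hnRNP M had none. No site was listed in all 12 libraries. Among the 274 FOX2 sites, 66.1% lay 3′ of listed introns, against 50.4% of all sites. The highest was on ENST00000326427.6 (chromosome 2, plus strand, 231743790), with 97 and 303 counts in FOX2 P-KO and 29 and 125 in FOX2 WT. The next, at 121769339 on ENST00000282561.3, had 143 and 199 in the P-KO and 48 and 19 in the WT libraries of FOX2.

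ENST00000534336.1 carried FOX2 sites and TDP43 sites, each chosen as listed in all 4 libraries of its protein and none of the other 8. The site at 65271491 had 123 and 116 counts in FOX2 P-KO and 62 and 39 in FOX2 WT. The site at 65271989 had 39 and 19 in TDP43 P-KO and 94 and 26 in TDP43 WT. Their absence from the other libraries is the rule of choice. How many sites of this transcript the proteins shared is not given here. Only 30 sites, on 11 transcripts, were listed in all 8 FOX2 and TDP43 libraries. Of sites listed in at least 2 libraries of a protein, 206 were shared by FOX2 and TDP43, which is 6.55% of the 3144 FOX2 and 16.9% of the 1222 TDP43 sites. Recurrence was also limited within a protein. Between replicates, 6.97% and 12.9% of exonic windows overlapped in TDP43 and 33.5% and 10.6% in FOX2, P-KO first. That measure differs from the site counts, and the low sharing is given as a description of the lists. hnRNP M had 41 such sites, and shared 22 of them (53.7%) with FOX2 and 22 with TDP43.

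Between genotypes, no exonic transcript passed for any protein. The edgeR test called 0 of 680 for FOX2 P-KO against WT (0.0552% of all features), 0 for TDP43 (0.0552%), 0 for hnRNP M (0.069%) and 0 for the effect common to the 3 proteins (0.069%). At an unadjusted p under 0.05 there were 40 exonic transcripts for FOX2 (5.88%, against 4.53% of all features), 29 for TDP43 (4.26%, against 1.93%), 55 for hnRNP M (8.09%, against 9.01%) and 44 for the common effect (6.47%, against 3.73%). In the same order DESeq2 called 7, 0, 0 and 2. Replicates spread widely, with a biological coefficient of variation of 0.902, so a difference that did not pass may still exist.

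For FOX2, the tested exonic transcripts leaned towards P-KO and all features together towards WT. Both FOX2 P-KO libraries lay above both FOX2 WT libraries in CPM in 202 of the 680 exonic transcripts (29.7%, against 14.8% of all features) and below in 66 (9.71%, against 31.2%). For TDP43 both P-KO libraries lay above both WT libraries in 49 (7.21%, against 19.3%) and below in 111 (16.3%, against 11.5%). For hnRNP M the numbers were 23 (3.38%, against 10.3%) and 40 (5.88%, against 10.5%). Features listed at 0 in all 4 libraries of a protein cannot separate in either direction, which lowers these percentages. For hnRNP M these were 250 of the 680 exonic transcripts and 978 of all 7245 features. For TDP43 they were 112 and 231, and for FOX2 52 and 116. The median fitted log2 fold change for FOX2 P-KO against WT was 0.81 in exonic transcripts and -0.16 over all features. A transcript passes the filter through the libraries in which it is high, and FOX2 P-KO held the most exonic counts of any group. These numbers therefore describe the 680 transcripts that passed and are no test of a genotype effect. The FOX2 and TDP43 directions are those of the exonic shares given above.

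Of the 10 transcripts with the highest FOX2 share, 9 had a positive P-KO to WT log2 fold change, from 0.82 to 1.86, and the other, ENST00000458748.1, had -1.53. A high P-KO count itself raises the share that chose them, and among all 680 tested exonic transcripts mean CPM was higher in P-KO in 405 (59.6%). None passed, with edgeR adjusted p from 0.976 to 0.992. FOX2 exonic counts were also held by fewer transcripts in P-KO: 76 and 98 transcripts held 50% of them in FOX2 P-KO, against 348 and 315 in FOX2 WT. In TDP43 the numbers were 196 and 36 in P-KO and 15 and 42 in WT, and they overlapped. In hnRNP M they were 75 and 148 in P-KO and 102 and 361 in WT.

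The transcripts of smallest p are named with their values and did not pass. For the common effect, ENST00000367182.3 (chromosome 1, plus strand, 204506603 to 204525754) had 296 and 913 counts in FOX2 P-KO against 76 and 121 in FOX2 WT. It had 6 and 10 in TDP43 P-KO against 0 and 4 in TDP43 WT, while hnRNP M gave 21 and 7 in P-KO against 0 and 4 in WT. P-KO was above WT in CPM for every protein (log2 fold change 2.31, edgeR adjusted p = 0.219). ENST00000549804.2 (chromosome 15, plus strand, 25295837 to 25367137) was listed at 0 in all 6 P-KO libraries, against 21 and 17 counts in FOX2 WT, 0 and 25 in TDP43 WT and 0 and 15 in hnRNP M WT (edgeR adjusted p = 0.426). Exonic counts over the megabase of chromosome 15 that holds it were 0 and 6 in FOX2 P-KO against 83 and 99 in FOX2 WT. They were 7 and 2 in TDP43 P-KO against 21 and 55 in TDP43 WT, while hnRNP M gave 0 and 0 in P-KO against 0 and 20 in WT. What P-KO removes is not in the labels, so absent RNA and absent contacts cannot be told apart here.

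For single proteins, ENST00000335350.6 (chromosome 10, plus strand, 73047521 to 73062224) had 8 and 16 counts in FOX2 P-KO and was listed at 0 in FOX2 WT (edgeR adjusted p = 0.976). ENST00000346798.3 had 7 and 10 in TDP43 P-KO and was listed at 0 in TDP43 WT (adjusted p = 0.547). ENST00000344120.4 (chromosome 5, minus strand, 141690538 to 141693972) was listed at 0 in hnRNP M P-KO and had 8 and 34 in hnRNP M WT (adjusted p = 0.359). These are counts near the lower limit of the lists, and no fold is given.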

How the data were processed

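The data are 12 iCLIP position lists from H9 cells, 2 per protein and genotype, grouped by title. The submitters' processing notes name Bowtie, without a version, and GRCh37 (hg19). How peaks were called is not given in the sources used here. For each position the authors deposited an unnormalized whole-number count and a value of at most 0.05 that is a p-value or a q-value (not stated which); the lowest listed count was 2. Whether counts are reads or cDNAs collapsed by barcode is not stated. The deposited counts of neighbouring positions repeat one another, so counts were thinned to windows at least 11 nt apart, separately for exonic and intronic positions. Sums per transcript and class formed a table of 62259 features, of which 7245 passed filterByExpr. edgeR 4.0.16 (R 4.3.3; TMM factors from 0.566 to 1.89; quasi-likelihood F test; Benjamini-Hochberg over all tested features; threshold 0.05) was fitted to all 12 libraries with a mean per protein and genotype. DESeq2 1.42.0 was an alternative. CPM are window counts per 1000000 window counts. Shares, counts per window and replicate overlap were tested by exact permutation (scipy 1.17.1). The fit was also run on simulated counts. Recovery was required there only at a spread below that of the data, so it is no test of recovery at the real spread.

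Transcripts named are the 10 of highest mean share per protein, up to 6 largest rises and falls past the threshold with groups not overlapping and a mean count of at least 10 in the higher group (the first 2 of each are printed, since identifiers are not paired with gene names), those of smallest p where fewer than 5 passed, and those highest relative to the other proteins. The members and lists were chosen with earlier results of these data known. Planned lists of genes and cell markers could not be applied, because 0 identifiers were paired with a symbol. Of the tested exonic transcripts, 77 (11.3%) overlap another on the strand. Of 87911 distinct exonic positions, 1439 were listed as intronic in another library.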

Additional observations from a re-analysis of the deposited data

Results flagged for a closer look

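The genotype difference in exonic share had opposite signs in FOX2 and TDP43. The P-KO minus WT difference in log2 share was 0.44 for FOX2, with both P-KO libraries above both WT libraries, and -0.35 for TDP43, with both P-KO libraries below both WT libraries. The difference between these values was 0.79 (exact permutation of genotype within each protein, two-sided, p = 0.0556, the smallest that 36 arrangements allow). The permutation assumes no genotype effect in either protein, so it does not test whether the effects are equal. FOX2 minus hnRNP M was 0.65 (p = 0.111, exact permutation) and TDP43 minus hnRNP M was -0.15 (p = 0.778, exact permutation).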

How the results depend on the processing

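Depth limits hnRNP M most, each group had 2 libraries, and exonic transcripts absent from a list have no measured value. In the DESeq2 fit, 7 FOX2 P-KO to WT calls and 2 calls of the common effect appeared, all higher in P-KO, and without the filter on low counts 1 common call, lower in P-KO. With the number of windows per transcript in place of counts, 53 exonic transcripts were tested and the calls were 37 for FOX2 against TDP43, 28 for FOX2 against hnRNP M and 2 for TDP43 against hnRNP M. Fitting only the libraries of a comparison gave 241, 107 and 29 in that order, with 630, 372 and 251 exonic transcripts tested, since the filter then sees 8 libraries. Without TMM scaling FOX2 against hnRNP M fell to 97 (92 higher, 5 lower) and TDP43 against hnRNP M to 37 (34 higher, 3 lower). TDP43 against hnRNP M also gave 37 with a filter of at least 20 counts in 2 libraries. Bins of 10 kb gave 283 and 151 calls for these pairs. A term for the 3 nt spacing, added after the data were seen, gave 2 FOX2 P-KO to WT calls, both higher.

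Same-numbered libraries were compared by the correlation of their deviations from the group means. Over exonic features r was positive in all 15 pairs of groups, from 0.00232 to 0.347, and over 0.1 in 12. Over all tested features it was also positive in all 15, and over 0.1 in 1. Since not every pair exceeded 0.1, a limit set by choice, and the labels name no shared batch, replicate numbers were not treated as pairing. They do go with the 3 nt spacing and with the profile of ENST00000458748.1. The main fits do not account for such a difference between same-numbered libraries. With the replicate block, FOX2 P-KO to WT had 1 call, lower in P-KO. The calls between proteins were 179 for FOX2 against TDP43, 194 for FOX2 against hnRNP M and 82 for TDP43 against hnRNP M. In the main fit they were 158, 171 and 56.

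Leaving out each library in turn gave 0 to 3 calls for TDP43 P-KO to WT, 0 to 5 for hnRNP M, 1 to 4 for the common effect and 0 for FOX2, where all 12 libraries together gave 0. For TDP43 the calls came without TDP43 WT replicate 1 (1), TDP43 P-KO replicate 2 (2) or any 1 hnRNP M library (2 or 3), and for hnRNP M without hnRNP M WT replicate 1 (4), WT replicate 2 (5) or P-KO replicate 2 (3). For the common effect any library left out gave calls. More transcripts enter these fits, because the filter then takes 1 library as the smallest group. The number for FOX2 against TDP43 was 98 to 252. It was 103 and 100 without TDP43 WT replicate 1 and 2 and 98 without TDP43 P-KO replicate 2, and 247, 252, 247 and 242 without hnRNP M WT replicate 1 and 2 and hnRNP M P-KO replicate 1 and 2. TDP43 against hnRNP M gave 38 to 108, with 108 without hnRNP M WT replicate 2. FOX2 against hnRNP M gave 133 to 218.

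The log2 difference in exonic share of FOX2 against TDP43 turned from -0.07 to 0.30 as a share of windows, 0.36 with windows capped at 20 counts and 0.28 without ENST00000458748.1 (exact permutation p = 0.0556, 0.0556 and 0.278, where 0.0556 is the smallest possible). That transcript was left out after the data were seen. For TDP43 against hnRNP M it was 1.13, and 0.62 with capped windows. The common P-KO minus WT difference in log2 share turned to 0.0112 as a share of windows and 0.00303 with capped windows, and ran from -0.150 to 0.0716 as each library was left out, positive at 0.00427 without TDP43 P-KO replicate 1, 0.0402 without hnRNP M P-KO replicate 1 and 0.0716 without hnRNP M WT replicate 2. The replicate overlap kept its direction in every leave-one-out, with differences of 2.37 to 4.34 points (3.56 without FOX2 WT, 4.14 without TDP43 P-KO, 3.42 without TDP43 WT, 2.37 without FOX2 P-KO, 4.34 without hnRNP M P-KO and 4.27 without hnRNP M WT), each with an exact permutation p of 0.0625, the smallest that 5 groups allow. By number of windows, 3 called transcripts turned for TDP43 against hnRNP M: ENST00000534336.1 to -0.64, ENST00000501122.2 to -0.49 and ENST00000602361.1 to -1.51. The cause of these changes was not tested.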

Other observations

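In CPM, replicate 2 was above replicate 1 in all 6 groups for 9 of the 680 tested exonic transcripts (1.32%), near the 1.48% of all tested features. The reverse held for 0, against 1.56% of all features. The transcripts named here were chosen after their values were seen. Of these 9, 6 had no listed intron, against 142 of the 680. ENST00000365494.1 (chromosome 17, plus strand, 19091360 to 19091402) had 53 counts in replicate 1 and 931 in replicate 2 of FOX2 P-KO, against 17 and 386 in FOX2 WT. In the same order TDP43 gave 3 and 626 in P-KO, against 51 and 718 in WT, and hnRNP M 0 and 80 in P-KO, against 10 and 177 in WT. ENST00000364451.1 (chromosome 1, minus strand, 228763978 to 228764004) was listed at 0 in all 6 replicate 1 libraries, and in replicate 2 had 27 in FOX2 P-KO, 26 in FOX2 WT, 21 in TDP43 P-KO, 50 in TDP43 WT, 16 in hnRNP M P-KO and 18 in hnRNP M WT. ENST00000365494.1 ranks among the 6 highest of TDP43 and the 3 highest of hnRNP M by mean share, so those ranks rest on the replicate 2 libraries.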
